A study of Mus musculus with 12 samples.

Results

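The insulin and insulin-like growth factor (IGF) signalling genes described here are Insr, Igf1r, Irs1, Irs2, Pik3r1, Akt1, Akt2 and Foxo1. They were chosen by name, and every probe set that the platform annotation gives to 1 of these symbols was taken. That made 25 probe sets of 8 genes, out of 45101 probe sets and 18193 named genes. Insr had 3 probe sets, Igf1r 5, Irs1 1, Irs2 1, Pik3r1 4, Akt1 4, Akt2 3 and Foxo1 4. All 25 passed the filter on low values, a log2 value above 5 on at least 3 of 12 arrays, as did 35426 probe sets of 15239 genes in all.

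All mice were of the C57BL6 strain. They were either wild type (WT) or Sgpp2-/- (KO), and mice of each genotype ate normal food or a high-fat diet (HFD in the labels). Sgpp2 encodes an enzyme that removes the phosphate from sphingosine-1-phosphate, a signalling lipid. The 4 groups had 3 Affymetrix expression arrays each: WT on normal diet, KO on normal diet, WT on high-fat diet and KO on high-fat diet. The labels name no tissue, and the title of the study speaks of pancreatic islets. The age and sex of the mice, the length of the diet, the way the allele was made and the number of animals behind an array are in neither. Because nothing says that the arrays of a group came from separate animals, the p-values measure the spread between arrays, which may be technical.

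Insulin and the IGFs bind receptor tyrosine kinases, which phosphorylate the adaptor proteins IRS1 and IRS2. The adaptors recruit PI3-kinase, whose lipid product brings AKT kinases to the membrane. AKT then phosphorylates FOXO1 and keeps this transcription factor out of the nucleus. In beta cells of mice, IRS2 is known as the adaptor that supports beta-cell mass under insulin resistance, and FOXO1 as a regulator of beta-cell proliferation and identity.

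Promoter sequences of 7 of the genes, all but Insr, were matched in RefSeq (GRCm38.p6) as 12 windows of 250 bases before a transcription start. The windows of the adaptors Irs1 and Irs2 are shown because both hold a sequence known as the insulin response element, and that of Foxo1 because it is the gene with the one call reported below. In the windows of Irs1, at chr1:82291440-82291689 on the minus strand, and Irs2, at chr8:11008930-11009179 on the minus strand, capitals mark TGTTTTG, the reverse of CAAAACA, and the E-box CACGTG. In the window of Foxo1, at chr3:52268087-52268336 on the plus strand, capitals mark the GC box in the form CCGCCC, the reverse of GGGCGG.
Irs1 promoter: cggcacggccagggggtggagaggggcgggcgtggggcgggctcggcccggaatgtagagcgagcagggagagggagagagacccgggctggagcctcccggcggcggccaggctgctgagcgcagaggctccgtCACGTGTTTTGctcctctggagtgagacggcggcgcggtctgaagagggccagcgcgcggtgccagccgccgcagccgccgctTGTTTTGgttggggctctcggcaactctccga
Irs2 promoter: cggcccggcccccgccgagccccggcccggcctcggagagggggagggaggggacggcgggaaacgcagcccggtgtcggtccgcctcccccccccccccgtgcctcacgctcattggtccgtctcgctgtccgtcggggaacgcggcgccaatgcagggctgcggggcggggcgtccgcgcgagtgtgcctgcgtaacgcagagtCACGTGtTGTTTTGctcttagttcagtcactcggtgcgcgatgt
Foxo1 promoter: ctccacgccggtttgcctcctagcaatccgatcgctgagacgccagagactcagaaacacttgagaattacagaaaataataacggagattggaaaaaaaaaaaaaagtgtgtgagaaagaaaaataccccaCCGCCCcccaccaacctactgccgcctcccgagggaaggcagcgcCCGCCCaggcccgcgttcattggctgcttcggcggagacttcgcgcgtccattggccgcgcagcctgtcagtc

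On both adaptor promoters the E-box and an insulin response element lay side by side. In Irs1 the E-box began at position -115 from the start and an insulin response element at -111, so that the words overlap, and a further insulin response element began at -32. In Irs2 the E-box began at -44 and the insulin response element at -37. Both strands were searched, and the windows of Irs1 and Irs2 were the 2 of the 12 that held CAAAACA and the 2 that held CACGTG. Among 32851 windows of the same length, 5.56% held CAAAACA, 6.02% held CACGTG, and 97 windows, 0.295%, held both. The FOXO consensus GTAAACA was found in 1 of the 12 windows, 1 of Akt1, against 3.17% of all windows, and the GC box in 7 of the 12, against 32.7%. The GC content of the 12 windows ran from 42.4% to 78.4%, with 8 above the median of all windows, 52.4%. A match describes the letters of a window and not a binding site.

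Of the whole series, the following facts bear on the members. Sgpp2 (1457867_at) read 11.46 to 11.63 on the log2 scale on the 6 WT arrays and 10.99 to 11.17 on the 6 KO arrays, a difference of -0.46 (SE 0.06, limma, adjusted p = 0.00252). The labels do not say where its probes lie relative to the deleted part. Islet hormone genes were bright, with means over all arrays of 14.57 for Ins2, 14.96 for Iapp, 14.40 for Gcg and 14.27 for Sst. Markers of acinar cells, the enzyme-secreting cells of the exocrine pancreas, were higher in KO for 13 of the 13 measured when both diets were averaged. The log2 of their summed level was 17.43 to 17.62 in WT and 17.64 to 17.85 in KO on normal diet, and 17.33 to 17.62 and 17.55 to 17.61 on high-fat diet, with none at or below 5 on every array. Of 9 endothelial markers 1 was higher in KO, and their summed level was 13.87 to 13.97 in WT and 13.70 to 13.76 in KO on normal diet, and 13.85 to 13.99 and 13.76 to 13.85 on high-fat diet. The genotypes did not overlap in either sum on normal diet, and overlapped in both on high-fat diet. Delta-cell markers were higher in KO for 0 of 3, with sums of 14.64 to 14.77 in WT and 14.58 to 14.62 in KO on normal diet and 14.56 to 14.85 and 14.46 to 14.67 on high-fat diet. T and NK cell markers were higher in KO for 7 of 8, with sums of 8.33 to 8.36 and 8.39 to 8.66 on normal diet and 8.48 to 8.66 and 8.50 to 8.86 on high-fat diet, and Klrd1 was not above 5 on any array. The means of these markers over all arrays were 4.39 to 6.12, so their sums lay near the filter value. In such bulk samples, fewer cells of a type and less RNA per cell cannot be told apart.

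For these 8 genes, few differences between KO and WT passed the threshold used here. Called here means an adjusted p under 0.05 in limma, adjusted over all 35426 probe sets of a comparison. On normal diet, 0 of the 25 probe sets were called between KO and WT, against 1.34% of all probe sets, and 0 of the 8 genes against 2.49% of all genes. On high-fat diet 0 were called, against 0.271% of probe sets and 0.512% of genes. When the difference was averaged over both diets, 1 of 25 was called, the Foxo1 probe set 1416981_at, against 8.39% of all probe sets. By gene that is 1 of 8, against 14.2% of all genes, so the share of members called was near or under the background. At an unadjusted p under 0.05 there were 2, 2 and 3 of the 25, where 21.0%, 14.8% and 28.1% of all probe sets were under it.

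The average differences were also small in log2 units, as was that of the targeted gene. The average genotype difference of the 25 probe sets ran from -0.33 to 0.30 on the log2 scale, with 10 higher and 15 lower in KO and a median of -0.03. Over all probe sets 41.4% were higher in KO and the median was -0.04. For all 25 member probe sets the 95% interval of the average genotype difference lay within a 1.5-fold change in either direction. Sgpp2, the targeted gene, differed by -0.46 (SE 0.06), itself less than 1.5-fold, so this bound does not show that a member was unchanged. On normal diet alone, 18 of 25 intervals lay within it, and on high-fat diet alone 19 of 25. On normal diet the 3 KO arrays did not overlap the 3 WT arrays for 6 of the 25 probe sets, beside 31.3% of all probe sets. On high-fat diet this held for 2 of 25, Insr 1450225_at and Foxo1 1416983_s_at, beside 16.8%.

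**Figure D1:**
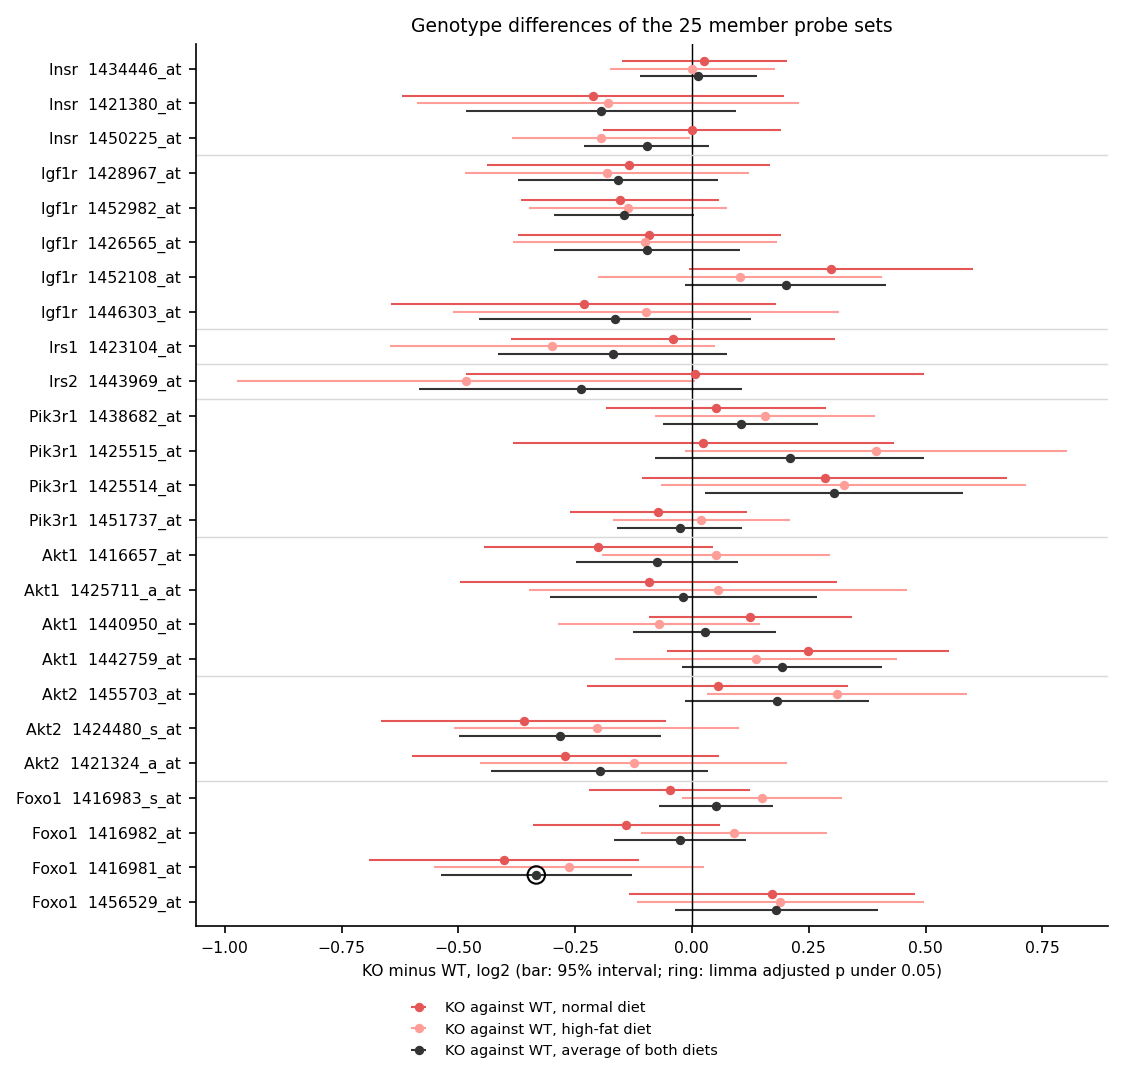
Differences between KO and WT (x axis, log2) for each of the 25 probe sets, with points for the estimate and bars for the 95% interval from limma, on normal diet, on high-fat diet and averaged over both diets. Most intervals span 0, and the average difference of Foxo1 1416981_at, -0.33, was the only one with an adjusted p under 0.05.

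Insr, the insulin receptor, varied little on its brightest probe set. This probe set, 1434446_at, read 11.08, 11.08 and 11.01 in WT and 11.14, 10.97 and 11.13 in KO on normal diet. On high-fat diet it read 11.08, 11.04 and 10.94 in WT and 11.06, 11.03 and 10.97 in KO. All 12 arrays thus lay within 10.94 to 11.14, and the 4 groups overlapped. The average genotype difference was 0.01 (SE 0.06, 95% interval -0.11 to 0.14, adjusted p = 0.899) and the average diet difference -0.05 (SE 0.06, adjusted p = 0.769). A dimmer probe set, 1421380_at, varied more, from 6.44 to 7.43, with an average genotype difference of -0.20 (SE 0.13, adjusted p = 0.355). The remaining one, 1450225_at, lay at the edge of the filter, from 4.78 to 5.16 and above 5 on 7 arrays. On high-fat diet its arrays did not overlap between the genotypes, at 5.16, 5.08 and 5.12 in WT and 4.78, 4.96 and 5.05 in KO, a difference of -0.19 (SE 0.09, adjusted p = 0.328).

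Igf1r, the receptor for IGF1 and IGF2, was a little lower in KO by its 2 brightest probe sets, without a call. On 1428967_at the normal-diet arrays read 10.99, 11.10 and 11.13 in WT and 11.05, 10.79 and 10.97 in KO. The high-fat arrays read 11.10, 11.37 and 11.35 in WT and 11.19, 10.77 and 11.32 in KO, where KO array 2 was the lowest of the 12. The average genotype difference was -0.16 (SE 0.10, 95% interval -0.37 to 0.06, adjusted p = 0.311). On 1452982_at the WT arrays on normal diet, 9.19, 9.14 and 9.13, all lay above the KO arrays, 9.02, 9.03 and 8.95. The high-fat arrays of this probe set read 9.31, 9.12 and 9.45 in WT and 9.29, 9.13 and 9.06 in KO, and overlapped. Its average genotype difference was -0.15 (SE 0.07, adjusted p = 0.190). The others did not share a direction: 1426565_at differed by -0.10 (adjusted p = 0.518) and 1446303_at by -0.17 (adjusted p = 0.441), while 1452108_at differed by 0.20 (adjusted p = 0.206). The probe sets 1452108_at and 1446303_at were above 5 on 11 and 10 arrays, near the filter.

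**Figure D2:**
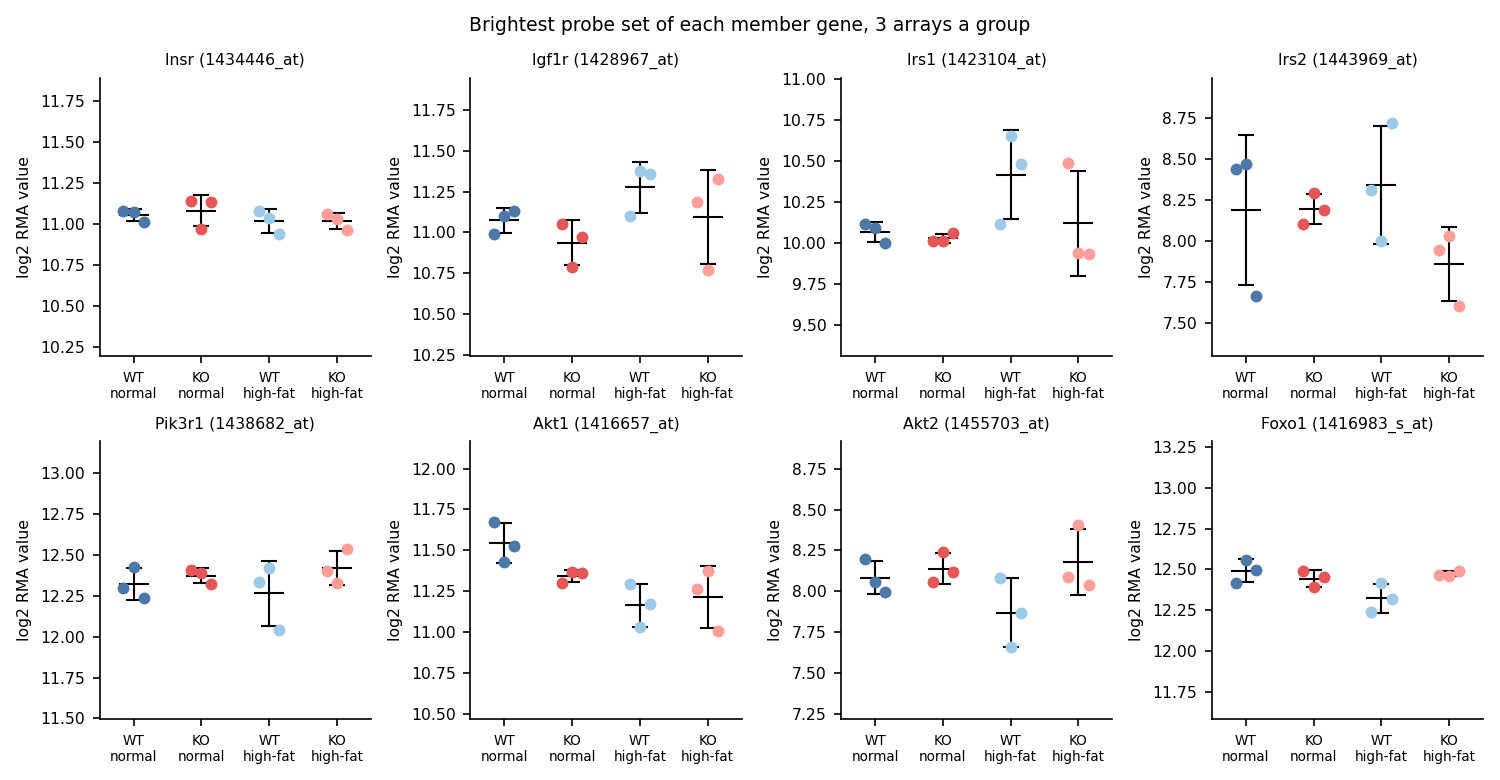
Deposited log2 RMA value (y axis) of every array for the brightest probe set of each of the 8 genes, by group, with the mean as a horizontal line and the SD over 3 arrays as bars. All panels span the same number of log2 units. Insr stays between 10.94 and 11.14 on all 12 arrays, while Irs1 and Irs2 spread more, above all on high-fat diet for Irs1.

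Irs1, the adaptor that carries the receptor signal to PI3-kinase, was level between the genotypes on normal diet and spread widely on high-fat diet. Its 1 probe set, 1423104_at, read 10.12, 10.09 and 10.00 in WT and 10.01, 10.01 and 10.06 in KO on normal diet. The high-fat arrays read 10.12, 10.66 and 10.48 in WT and 10.49, 9.94 and 9.93 in KO. On high-fat diet 2 WT arrays and 1 KO array stood between 10.48 and 10.66 and the rest between 9.93 and 10.12, so the groups overlapped. The genotype difference was -0.04 on normal diet (SE 0.16, adjusted p = 0.904) and -0.30 on high-fat diet (SE 0.16, 95% interval -0.65 to 0.05, adjusted p = 0.404). Averaged over both diets it was -0.17 (SE 0.11, 95% interval -0.41 to 0.08, adjusted p = 0.344). The test of the difference between the diets in this genotype effect gave -0.26 (SE 0.22, 95% interval -0.75 to 0.23, unadjusted p = 0.273).

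Irs1 lies on chromosome 1 as the 15th protein-coding gene after Sgpp2 in the reference order, with 14 genes between them. Genes this close to a targeted locus can be carried along from the strain in which an allele was made. Of the 14, 11 were tested, and 7 had at least 1 probe set called between KO and WT in the average of both diets, 63.6% beside 14.2% of all genes. They were Farsb, Mogat1, Utp14b, Ap1s3, Wdfy1, Mrpl44 and Dock10. Ap1s3, which encodes a subunit of a clathrin adaptor complex, rose by 1.77 (SE 0.22, adjusted p = 0.00252). Utp14b, a retrogene with a role in ribosomal RNA processing, fell by 0.86 (adjusted p = 0.0181), and Mogat1, an enzyme of triglyceride synthesis, rose by 0.42 (adjusted p = 0.0478), a call kept in 6 of 21 other settings. Within a gene the probe sets could disagree: in Farsb, a subunit of the phenylalanyl-tRNA synthetase, one fell by 0.28 and another rose by 0.32. Wdfy1 and Mrpl44 each had 1 of 4 probe sets called.

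Among the 20 protein-coding genes on the Sgpp2 side of Irs1, 11 of 17 tested had a call, 64.7%, with Stk11ip, Epha4, Pax3 and Sgpp2 besides those 7. Sgpp2 is the targeted gene itself, and its call is part of this count and of the 15 given below. Among the 20 on the far side the count was 4 of 13, 30.8%: Mff, Dner, Trip12 and Fbxo36. Irs1 itself was not called. An effect of Sgpp2 loss on Irs1 and an effect of a linked segment cannot be told apart in these groups. The count of 15 called genes around Irs1 ranged from 5 to 17 under the other settings tried, the lowest when the probe sets of each gene were averaged, and that of 7 between the genes from 2 to 9. It dropped from 15 to 8 without WT normal-diet array 1 or KO normal-diet array 3, and to 9 without WT normal-diet array 3, WT high-fat array 1 or WT high-fat array 3.

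**Figure D3:**
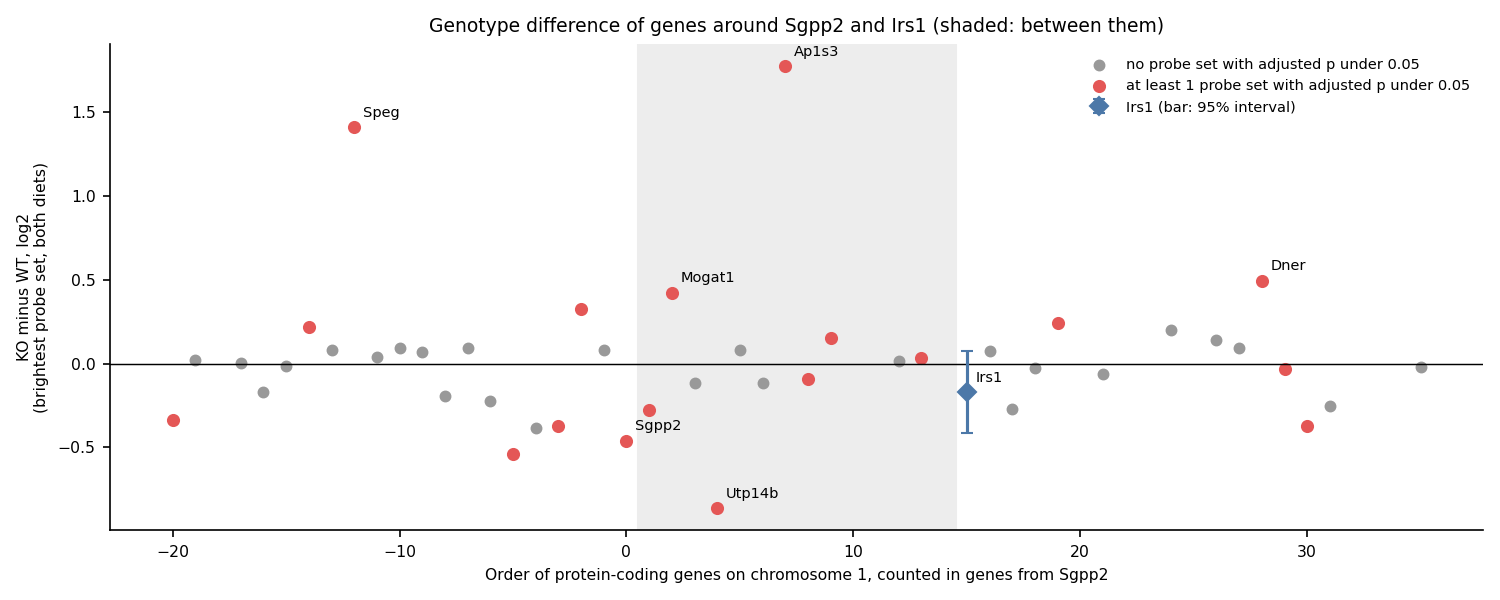
Average difference between KO and WT over both diets (y axis, log2, brightest probe set of a gene) against the order of protein-coding genes counted from Sgpp2 at 0 (x axis). Red points are genes with at least 1 called probe set, which need not be the one plotted; the grey band marks the 14 genes between Sgpp2 and Irs1. Irs1 sits at position 15 with an interval that spans 0, and Ap1s3, at 1.77, is the highest point in the band.

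Irs2, the other adaptor, had the widest spread of the members. Its probe set 1443969_at read 8.44, 8.47 and 7.66 in WT and 8.11, 8.29 and 8.19 in KO on normal diet. On high-fat diet it read 8.31, 7.999 and 8.72 in WT and 7.95, 8.03 and 7.60 in KO. The normal-diet groups overlapped through the low WT array 3, and on high-fat diet the WT and KO arrays met at 7.999 and 8.03. The genotype difference was 0.01 on normal diet (SE 0.22, adjusted p = 0.990) and -0.48 on high-fat diet (SE 0.22, 95% interval -0.97 to 0.01, adjusted p = 0.343). In KO the 3 high-fat arrays all lay below the 3 normal-diet arrays, a difference of -0.34 (SE 0.22, adjusted p = 0.766). Over the 12 arrays Irs1 and Irs2 correlated with r = 0.24, given as a description of arrays that share their groups and normalization.

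Pik3r1, which encodes the regulatory p85 alpha subunit of PI3-kinase, was higher in KO on 3 of 4 probe sets, without a call. The brightest, 1438682_at, read 12.30, 12.43 and 12.23 in WT and 12.41, 12.39 and 12.32 in KO on normal diet, and 12.34, 12.42 and 12.04 in WT and 12.40, 12.33 and 12.53 in KO on high-fat diet. These groups overlapped, and the average genotype difference was 0.10 (SE 0.08, 95% interval -0.06 to 0.27, adjusted p = 0.391). On 1425514_at the normal-diet arrays read 8.73, 8.97 and 8.76 in WT and 9.25, 9.06 and 9.002 in KO, which did not overlap. On high-fat diet they read 8.50, 8.94 and 8.37 in WT and 8.98, 8.56 and 9.25 in KO, which did. The average for this probe set was 0.30 (SE 0.13, 95% interval 0.03 to 0.58, unadjusted p = 0.0339, adjusted p = 0.145), the highest among the members. On 1425515_at the difference was 0.21 (SE 0.13, adjusted p = 0.320), with WT high-fat array 3 at 9.88 and the other 11 arrays between 10.55 and 10.94. The dimmest, 1451737_at, differed by -0.03 (SE 0.06, adjusted p = 0.813).

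Akt1, the kinase of the pathway expressed in most tissues, differed more with diet than with genotype on its brightest probe set. On 1416657_at the WT arrays read 11.68, 11.43 and 11.53 on normal diet and 11.30, 11.03 and 11.17 on high-fat diet. The KO arrays read 11.30, 11.37 and 11.36 on normal diet and 11.27, 11.38 and 11.01 on high-fat diet. The WT diet groups did not overlap, and the KO diet groups did. The high-fat minus normal difference was -0.38 in WT (SE 0.11, 95% interval -0.62 to -0.14, unadjusted p = 0.00555, adjusted p = 0.256) and -0.13 in KO (SE 0.11, adjusted p = 0.843). The difference between these diet effects was 0.25 (SE 0.16, 95% interval -0.09 to 0.60, unadjusted p = 0.139). The average genotype difference of 1416657_at was -0.07 (SE 0.08, adjusted p = 0.565), and on normal diet the KO arrays all lay below WT, by -0.20 (SE 0.11, adjusted p = 0.324). The dimmer 1425711_a_at, 1440950_at and 1442759_at differed by -0.02, 0.03 and 0.19 on average, with adjusted p of 0.941, 0.832 and 0.219. On normal diet 1442759_at went the other way from 1416657_at. Its KO arrays all lay above WT, though the groups nearly met, by 0.25 (SE 0.14, adjusted p = 0.322).

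Akt2, the AKT kinase known in mice for its part in glucose uptake and glucose balance, gave opposite directions on its probe sets. On 1424480_s_at the normal-diet arrays read 8.04, 7.63 and 7.94 in WT and 7.46, 7.46 and 7.62 in KO. The high-fat arrays read 7.89, 7.39 and 7.84 in WT and 7.52, 7.46 and 7.52 in KO. The genotypes did not overlap on normal diet, where WT array 2 and KO array 3 nearly met, and overlapped on high-fat diet through WT array 2, at 7.39. The average difference was -0.28 (SE 0.10, 95% interval -0.50 to -0.07, unadjusted p = 0.0146, adjusted p = 0.0942). Without WT high-fat array 2 it was -0.36 with an adjusted p of 0.0187, so it was called in 1 of the settings tried and not in the reported one. The brightest probe set, 1455703_at, went the other way: 8.20, 8.06 and 7.997 in WT and 8.05, 8.24 and 8.12 in KO on normal diet, and 8.08, 7.66 and 7.87 in WT and 8.09, 8.41 and 8.04 in KO on high-fat diet. Its average difference was 0.18 (SE 0.09, adjusted p = 0.209). On high-fat diet alone it was 0.31 (SE 0.13, 95% interval 0.03 to 0.59, unadjusted p = 0.0322, adjusted p = 0.292), with overlapping arrays. The remaining probe set, 1421324_a_at, differed by -0.20 on average (SE 0.11, adjusted p = 0.245).

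Foxo1, the transcription factor that AKT restrains, held the one call among the members. On 1416981_at the WT arrays read 9.81, 9.77 and 9.69 and the KO arrays 9.32, 9.41 and 9.33 on normal diet. On high-fat diet they read 9.86, 9.48 and 9.93 in WT and 9.61, 9.63 and 9.23 in KO. All KO arrays lay below all WT arrays on normal diet, and on high-fat diet the groups overlapped through WT array 2. Averaged over both diets this probe set fell by 0.33 in KO (SE 0.09, 95% interval -0.54 to -0.13, adjusted p = 0.0492), a 1.26-fold lower level. Taken alone, the difference was -0.40 on normal diet (SE 0.13, adjusted p = 0.128) and -0.26 on high-fat diet (SE 0.13, adjusted p = 0.381).

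The other probe sets of Foxo1 did not share this difference. The brightest, 1416983_s_at, read 12.42, 12.56 and 12.50 in WT and 12.49, 12.39 and 12.45 in KO on normal diet, and 12.24, 12.42 and 12.32 in WT and 12.47, 12.46 and 12.49 in KO on high-fat diet. Its arrays overlapped on normal diet, lay higher in KO on high-fat diet, and differed on average by 0.05 (SE 0.06, 95% interval -0.07 to 0.17, adjusted p = 0.576). On 1416982_at the average difference was -0.03 (SE 0.06, adjusted p = 0.829), and on 1456529_at it was 0.18 (SE 0.10, adjusted p = 0.255). The adjusted p of 1416981_at ranged from 0.0135 to 0.113 over the settings tried. The call was lost when any 1 of the 12 arrays other than WT high-fat array 2 was left out, and under cyclic loess scaling (-0.27, adjusted p = 0.0798) and median centring (-0.28, adjusted p = 0.0958). The acinar, endothelial, delta-cell and T and NK cell marker sums given above, the last from dim markers, also differed between the genotypes on normal diet. Their part in the Foxo1 difference was not tested.

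Diet left no called member. Between high-fat and normal diet, 0 of 25 probe sets were called in WT, where 0.0508% of all probe sets were, and 0 in KO, where the share of all probe sets was 0%. For the average of both genotypes the members' count was 0, against 0.178% of all probe sets, and for the interaction of genotype and diet it was 0, against 0%. At an unadjusted p under 0.05 the counts were 3, 0, 1 and 0 of 25 in limma, where 11.2%, 8.40%, 13.9% and 4.99% of all probe sets were under it. On average over the genotypes, 19 of 25 probe sets were lower on high-fat diet, with a median of -0.06 beside 0.00 over all probe sets. Of all probe sets, 50.8% were higher on high-fat diet. The 25 probe sets are repeated readings of 8 genes and not independent. All 25 intervals of the members' average diet difference lay within a 1.5-fold change, with the limit of this bound given above. For the interaction, 24 of 25 intervals lay within a 2-fold change, and the one beyond it was that of Irs2 (-0.49, SE 0.32, 95% interval -1.18 to 0.20).

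The 3 members with an unadjusted p under 0.05 in WT were Akt1 1416657_at, described above, Foxo1 1416982_at and Irs1. Foxo1 1416982_at read 10.53, 10.57 and 10.34 on normal diet and 10.26, 10.26 and 10.23 on high-fat diet in WT, which did not overlap, a difference of -0.23 (SE 0.09, adjusted p = 0.376). In KO it read 10.33, 10.35 and 10.34 on normal diet and 10.42, 10.42 and 10.18 on high-fat diet, which overlapped, with group means equal to 2 decimals. Irs1 was 0.35 higher on high-fat diet in WT (SE 0.16, 95% interval 0.00 to 0.70, adjusted p = 0.442). The WT diet groups did not overlap for 5 of 25 probe sets, Insr 1450225_at, Akt1 1416657_at, Akt2 1421324_a_at, Foxo1 1416983_s_at and Foxo1 1416982_at, beside 15.7% of all probe sets. In KO this held for 2 of 25, Igf1r 1452982_at and Irs2, beside 13.3%.

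**Figure D4:**
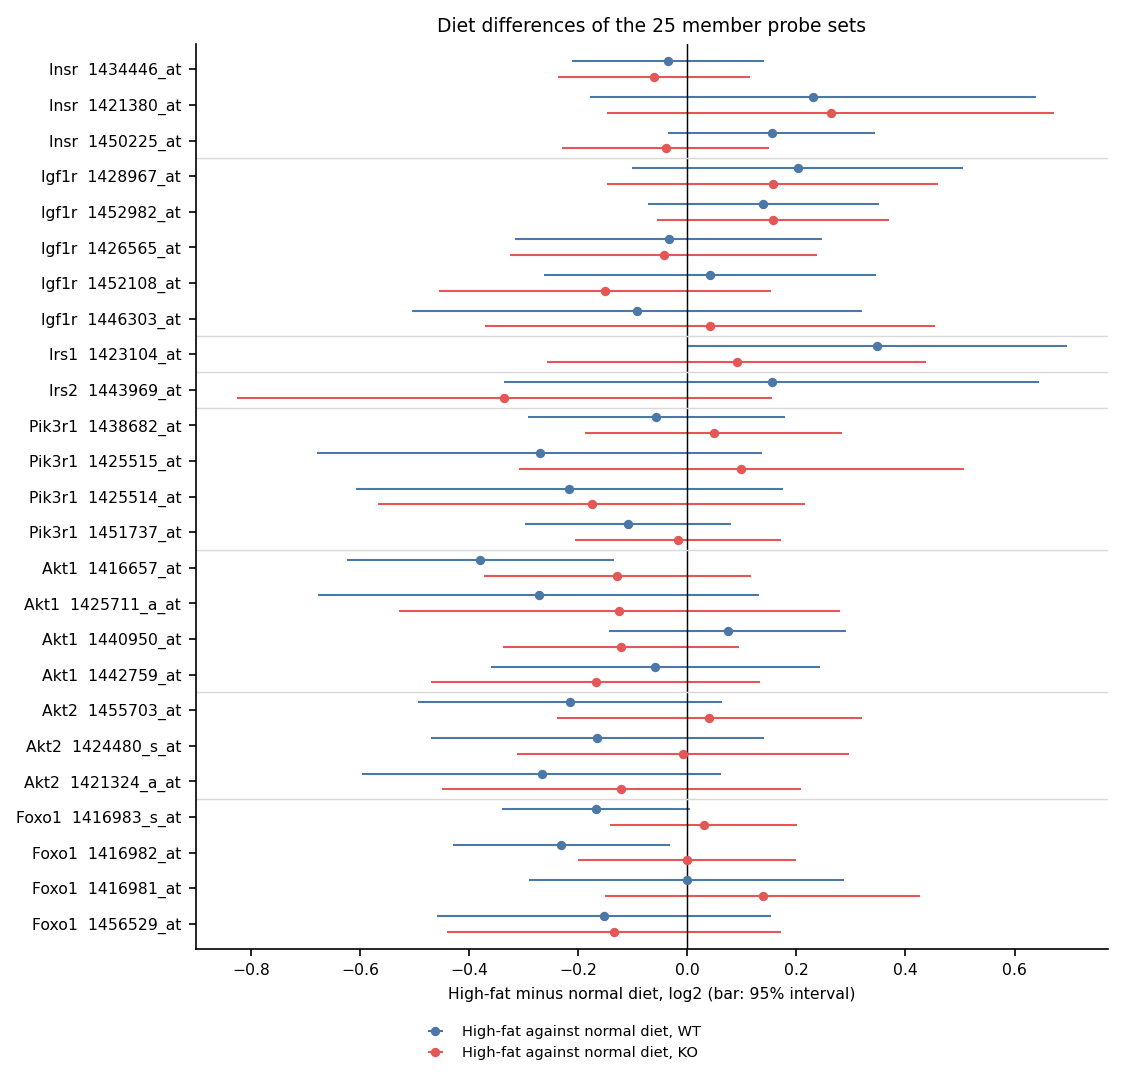
Differences between high-fat and normal diet (x axis, log2) for each of the 25 probe sets, with points for the estimate and bars for the 95% interval from limma, in WT and in KO. The WT intervals of Akt1 1416657_at, at -0.38, Foxo1 1416982_at, at -0.23, and Irs1, at 0.35, do not reach 0. None of the values had an adjusted p under 0.05.

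Around the 8 genes, 98 further genes of the pathway were counted in 6 lists by role, and 85 of them were tested. In the average of both diets 13 of 85 had a called probe set, 15.3% beside 14.2% of all genes, so the share was near the background. On normal diet the count was 5 of 85 (Inpp4b, Rictor, Gsk3b, Sesn1 and Cat), 5.88% beside 2.49%. On high-fat diet it was 0 of 85, with 22 of 85 at an unadjusted p under 0.05 in limma beside 23.4% of all genes, and it became 4 without WT high-fat array 2. The 5 of normal diet became 0 without WT normal-diet array 1 or 3 or KO normal-diet array 2 or 3, and 1 to 4 without each of the others. The 13 of the average ranged from 3, when the probe sets of each gene were averaged, to 19, without WT high-fat array 2, and was 8 without WT high-fat array 3. The part of the marker sums that differed between the genotypes in these counts was not tested either.

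Among ligands and binding proteins, 1 of 10 tested genes was called. Igfbp3, a carrier of circulating IGFs, rose by 0.36 on 1423062_at (adjusted p = 0.0254), and its other probe set differed by -0.09. Igfbp5, another binding protein, was not called and had its smallest p for diet, with average differences of -0.56 and -0.52 on high-fat diet (adjusted p = 0.114 and 0.136). Among receptors and their regulators, 1 of 10 was called. Igf2r, which clears IGF2, fell by 0.29 on 1424112_at (adjusted p = 0.0367), with 0.16 on its brighter probe set (adjusted p = 0.109). Ptprf, a receptor tyrosine phosphatase, was not called. Its 1420841_at differed by -0.58 on normal diet (adjusted p = 0.101) and by 0.18 on high-fat diet (adjusted p = 0.655), with an interaction of 0.76 (SE 0.24, unadjusted p = 0.00863, adjusted p = 0.956), and its other probe sets differed by -0.08 and -0.04 on normal diet. The median average difference was -0.01 for the first list and 0.01 for the second, beside -0.04 over all genes.

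Of 14 tested adaptor and Ras-MAPK genes, 3 were called. Sos1, an exchange factor that activates Ras, fell by 0.45 on 1421886_at (adjusted p = 0.0160) and by 0.23 on 1421885_at (adjusted p = 0.0446). On its brightest probe set, 1434389_at, Sos1 differed by 0.03 (adjusted p = 0.807), and on the others by -0.14 and 0.13. The related Sos2 rose by 0.28 (adjusted p = 0.0425). The phosphatase gene Ptpn11, which encodes SHP2, fell by 0.33 on 1427699_a_at (adjusted p = 0.0304). Its brightest probe set differed by -0.10 (adjusted p = 0.202) and the remaining one by 0.03. Of 10 PI3-kinase subunits and lipid phosphatases, 2 were called, and the list's median was -0.13. Both encode phosphatases that remove the 4-phosphate of a PI3-kinase lipid product: Inpp4a fell by 0.44 on 1421360_at (adjusted p = 0.0101) and differed by -0.04 on its brighter probe set, and Inpp4b fell by 0.40 (adjusted p = 0.0129).

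Inpp4b was the pathway gene with a call for both genotype and diet. It read 7.71, 7.75 and 7.59 in WT and 7.14, 7.17 and 7.21 in KO on normal diet. On high-fat diet it read 8.18, 7.89 and 8.09 in WT and 7.64, 7.69 and 7.99 in KO. On normal diet all KO arrays lay below all WT arrays, by -0.51 (adjusted p = 0.0486). This normal-diet call was kept in 5 of 22 other settings, with an adjusted p of up to 0.167, and lost under both scalings and the replicate block. Within each genotype the high-fat arrays all lay above the normal-diet arrays. The average diet difference was 0.48 (SE 0.08, adjusted p = 0.0368), the 1 call among the 85 genes for diet. That count was 0 to 5 over the settings tried, 5 under the random replicate block and 0 under the fixed one. Its adjusted p ranged from 0.0138 to 0.1004 over the settings tried, and it lay above 0.05 when any 1 array other than KO high-fat array 1 was left out.

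Of 24 genes of the AKT arm and the mTOR complexes, 2 were called. Gsk3b, a kinase that AKT inhibits, fell by 0.41 on 1451020_at (adjusted p = 0.00451), while its 5 other probe sets differed by -0.15 to 0.18 without a call. Rictor, a subunit of the mTOR complex that phosphorylates AKT, fell on 2 of 5 probe sets, by 0.30 on 1427583_at (adjusted p = 0.0149) and by 0.29 on 1441753_at (adjusted p = 0.0379). The first of these is dim, at 5.55 to 6.06. The brightest, 1435698_at, differed by -0.16 (adjusted p = 0.530), and the others by -0.26 and 0.01 without a call. Of 17 FOXO factors and known targets, 4 were called. Catalase, encoded by Cat, rose by 0.48 on its brighter probe set (adjusted p = 0.00818), and the other differed by 0.42 (adjusted p = 0.0797). Sesn1, a stress-induced restrainer of mTORC1, rose by 0.70 on 1438931_s_at (adjusted p = 0.00277), while its other 3 probe sets differed by -0.17, 0.04 and -0.04. Bcl6, a transcriptional repressor, rose by 0.37 on 1450381_a_at (adjusted p = 0.0366), with 0.61 on its brighter probe set (adjusted p = 0.0686). Cdkn1b, the cell-cycle inhibitor p27, fell by 0.46 on 1419497_at (adjusted p = 0.0190) with 0.27 on its brighter probe set (adjusted p = 0.0589). All 4 are known as genes that FOXO factors activate, and their calls here ran in both directions.

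These calls differed in how far they held under the other settings tried. The average genotype calls of Cat and Inpp4b were past the threshold in every setting. That of Sesn1 was past it in 20 of 21, and was lost when the probe sets of each gene were averaged (0.13, adjusted p = 0.201). The average genotype calls of Cdkn1b, Gsk3b, Inpp4a, Sos1 1421886_at and Rictor 1427583_at were past it in every setting run for them. The settings with 1 value per gene were scored only for a gene's brightest probe set, so not for these. The brightest ones differed by 0.27 for Cdkn1b, -0.05 for Gsk3b, -0.04 for Inpp4a, 0.03 for Sos1 and -0.16 for Rictor, none called. Igf2r was called in 6 of 19, and was lost under cyclic loess (adjusted p = 0.0843), median centring (0.0898) and both forms of the replicate block (0.0669 and 0.0667). Sos2 was called in 7 of 21, and was lost under the fixed block (0.0700) and the random block (0.0790). Ptpn11 was called in 9 of 19, and was lost under cyclic loess (0.0768), median centring (0.0656) and the random block (0.0662). Igfbp3 was called in 11 of 21, Bcl6 in 10 of 19, Rictor 1441753_at in 7 of 19 and Sos1 1421885_at in 2 of 19. Leaving out a single array was enough to end each of the calls of Igf2r, Sos2 and Ptpn11, with adjusted p of up to 0.0919, 0.104 and 0.0758 without 1 array. On normal diet alone, the calls of Sesn1 and Cat were kept in 16 of 22 and 10 of 22 settings. Those of Gsk3b 1451020_at (adjusted p = 0.0499) and Rictor 1427583_at (adjusted p = 0.04997) were kept in 4 of 20 and 1 of 19.

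**Figure D5:**
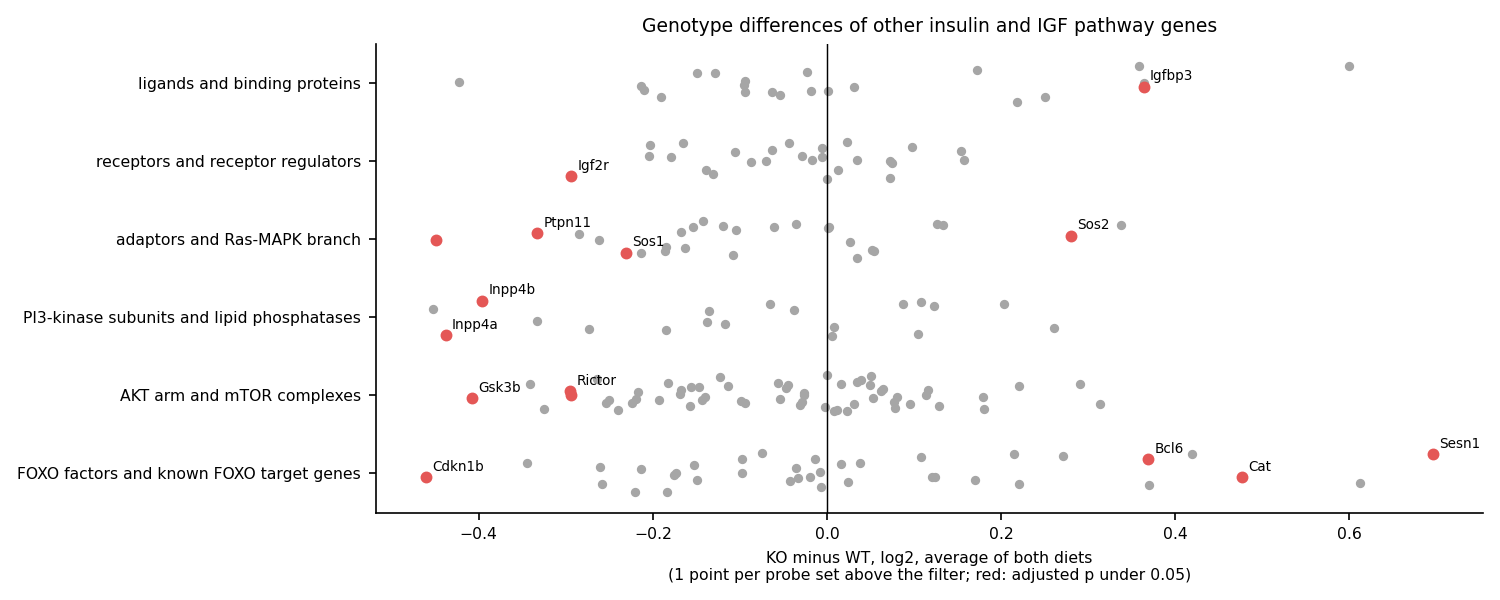
Average difference between KO and WT over both diets (x axis, log2) of every tested probe set of the 85 further pathway genes, by list (y axis), with called probe sets in red. The points of every list lie on both sides of 0, and the red points run from -0.46 (Cdkn1b) to 0.70 (Sesn1).

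As with Foxo1, most of these calls rested on 1 probe set of a gene. Of the 13 called genes, 11 had more than 1 probe set, 2 of these, Rictor and Sos1, had another one called the same way, and 8 had another one of opposite sign. In 5 of the 13 the brightest probe set was a called one. Within the 8 members the same could be seen over the 12 arrays. Of 34 pairs of probe sets of 1 gene, 6 correlated above 0.5 and 13 below 0, with a median r of 0.19. The highest was 0.94, between Pik3r1 1438682_at and 1425515_at, and the lowest -0.52, between Igf1r 1428967_at and 1452108_at. The called Foxo1 1416981_at and the brightest 1416983_s_at correlated at -0.43. These values describe arrays that share groups and normalization.

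Between the members, with the brightest probe set of each, the correlations over 12 arrays ran from -0.88 for Igf1r and Akt2 to 0.63 for Igf1r and Irs1. Of 28 pairs, 2 were above 0.5, the other being Akt1 and Akt2 at 0.55, and 4 were below -0.5. The genes whose pattern over the 12 arrays was most like that of Foxo1 1416981_at, among 15236 genes, were Pex14 (Pearson r = 0.97), Rpl19 (0.97) and Ptk2b (0.97). For the brightest Foxo1 probe set they were Gm5817 (0.93), Romo1 (0.89) and Gm9776 (0.89).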

How the data were processed

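The arrays were hybridised with biotin-labelled cRNA from total RNA extracted with Trizol, per the labels' protocols. The authors deposited a log2 RMA value for each probe set on each array. The tools were RMA and Partek 6.6, per the submitters' processing notes, which give no options. RMA corrects background and scales the arrays to each other, so that a shift of most genes one way could be hidden, and values near the lower end understate differences. The deposited log2 values ran from 2.60 to 15.30 with array medians of 7.00 to 7.13, and 75.9% to 77.3% of probe sets per array were above 5, which takes the place of depth.

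Probe sets were named from the platform annotation: 34945 of 45101 had 1 symbol, 932 several, 9160 were not listed, and 64 were controls. Of those with 1 symbol, 34741 matched the RefSeq table (GRCm38.p6), and 0 symbols needed an update. Within a group, arrays correlated at 0.991 to 0.995.

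All 12 arrays were fitted together in limma 3.58.1 under R 4.3.3, with a mean for each of the 4 groups (residual df 8) and two-sided tests, with Benjamini-Hochberg adjustment over 35426 probe sets. The alternatives were scaling, filter, 1 value per gene, variance prior, samples fitted, replicate number as a block and each array left out. Scripts were tested on simulated data with independent noise and changes larger than those of the members. Recovery at the size of the members' differences was not tested. Every member is reported. Of the pathway lists, every gene called in a comparison was named, up to 6 a list, and each list made up to 2 by smallest p. The members and lists were chosen with earlier results of these data known.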

Additional observations from a re-analysis of the deposited data

How the results depend on the processing

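The number of member genes called in the average genotype comparison was 1, Foxo1. It was 0 under cyclic loess scaling, 0 under median centring, 0 with no filter, 0 with 1 probe set a gene, 0 when the probe sets of each gene were averaged, 0 with replicate number as a block and 0 with a random replicate block; the cause was not tested. It stayed at 1 with the filter at 6 and with a trended, robust prior. With each array left out it ranged from 0 to 2, the 2 being Foxo1 and Akt2 without WT high-fat array 2. In the other 6 comparisons it stayed at 0 under every alternative run. Of 3516 values of members under alternatives, 127 had another sign than reported, 17 of them with a reported size of at least 0.1.

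Over all probe sets, the average genotype comparison called 2972 (1347 higher, 1625 lower), 2483 under cyclic loess (1602 higher, 881 lower) and 2768 under median centring (1999 higher, 769 lower). It called 5075 without WT high-fat array 2 and 1226 without WT normal-diet array 1, 963 genes with 1 probe set a gene and 632 with their mean.

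Same-numbered arrays did not deviate together in every pair (r of 0.257, 0.260 and 0.0611 between the KO diet groups over probe sets, and from -0.480 to 0.182 between the others), so the numbers were not taken as pairs. Over 1 probe set a gene the KO diet groups gave 0.288, 0.383 and 0.138, each over 0.1, and the other groups did not. With the replicate block, 2016 probe sets were called and Foxo1 1416981_at had an adjusted p of 0.0791; with the random block, 1465 and 0.0977. For the average diet comparison the block moved the count over all probe sets from 63 to 1, and the random block to 478 (in WT from 18 to 0 and 123); the members' count stayed at 0. The number of arrays limits all values: at 3 a group, the median SE of a member's difference was 0.14.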
